A study of Mus musculus with 12 samples.

Results

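The Id family holds Id1, Id2, Id3 and Id4, which were followed through 12 Affymetrix expression arrays of mouse mammary gland. All probe sets annotated to these 4 genes were taken, whatever their values, which gave 8 of the 45037 probe sets that are not controls. Id1 and Id3 had 1 probe set each, and Id2 and Id4 had 3 each. Of the 8, 7 lay above their array's median on at least 3 of the 12 arrays and were tested. The eighth, an Id2 probe set, stayed below.

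Id proteins are helix-loop-helix proteins that lack the basic region with which related factors touch DNA. They bind the E proteins (Tcf3, Tcf4 and Tcf12 genes), and so keep them from pairing with tissue-restricted basic helix-loop-helix factors and binding E-boxes, the short DNA sites such pairs recognise. Id genes are classic targets of bone morphogenetic protein (BMP) signalling, and in the mouse mammary gland Id2 is known to be needed for the lobuloalveolar growth of pregnancy and Id4 for normal ductal growth.

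The mice were ovariectomized BALB/c females aged 10 weeks, either progesterone receptor null or wild type, and the labels do not describe the null allele. Every mouse was given 100 ng of 17β-estradiol subcutaneously for 24 h, and then 100 ng of 17β-estradiol together with 2.5 ug of progesterone. The 4 groups were null glands after 24 h of the combined treatment, wild type glands after 24 h, null glands after 8 h and wild type glands after 8 h. Each group had 3 arrays, and each array held RNA pooled from 3 mice. All groups received both hormones, and mice of the later time had estradiol for longer, so time and hormone exposure cannot be told apart. The clock hour of collection may differ as well.

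The windows directly before the transcription starts of Id4 and Id3 are shown because these were the genes with called differences. Of the 4 Id genes, 3 were matched in the RefSeq promoter table (GRCm38.p6), namely Id2, Id3 and Id4. Each window is the 250 bases upstream of the start, 5′ to 3′ on the gene's strand. The Id4 window lies at chr13:48260866-48261115 on the plus strand and the Id3 window at chr4:136143572-136143821 on the plus strand. Capitals mark matches to GGCGCC, a GC box of the kind bound by BMP-activated SMADs, and to CCAAT, which reads ATTGG on the other strand.
Id4: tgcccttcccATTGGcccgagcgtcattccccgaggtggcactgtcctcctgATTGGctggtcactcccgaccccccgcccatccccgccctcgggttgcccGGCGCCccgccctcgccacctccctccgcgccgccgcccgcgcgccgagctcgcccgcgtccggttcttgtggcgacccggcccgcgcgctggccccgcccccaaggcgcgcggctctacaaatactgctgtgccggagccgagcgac
Id3: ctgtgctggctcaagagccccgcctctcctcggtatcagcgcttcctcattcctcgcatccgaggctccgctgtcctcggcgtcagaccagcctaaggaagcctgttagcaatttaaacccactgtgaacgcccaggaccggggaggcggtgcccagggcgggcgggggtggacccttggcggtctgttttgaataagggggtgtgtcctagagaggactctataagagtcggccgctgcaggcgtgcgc
Both strands were searched for 4 motifs, and matches of different motifs did not overlap in the windows of Id2, Id3 and Id4. The E-box CANNTG was matched in 66.2% of 32851 promoter windows of this length, the hormone receptor core TGTTCT in 16.1%, GGCGCC in 9.6% and CCAAT in 33.8%. The Id4 window held 1 GGCGCC, 148 bases before the start, and 2 CCAAT boxes, both as ATTGG, 240 and 198 bases before it. The Id3 window matched 0 of the 4 motifs. The Id2 window, at chr12:25096093-25096342 on the minus strand, held 1 E-box, 1 GGCGCC and 3 CCAAT boxes. TGTTCT was matched in 0 of the 3 windows. G and C made up 75.6% of the Id4 window, against a median of 52.4% over all windows. A match is only a string of letters and does not show binding.

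The arrays within a group correlated at r from 0.965 to 0.993 over the probe sets, and the array medians lay between 5.84 and 5.91 on the log2 scale. Markers of mammary epithelium were measured, with 9 of 10 luminal and 8 of 8 basal genes above the filter. White adipocyte markers averaged 13.46 to 13.69 on every array. Skeletal muscle markers varied most, from 6.64 to 13.10 in their mean per array. They leaned lower in null glands, with median differences of -2.23 at 8 h and -1.81 at 24 h. The pool means overlapped between genotypes at both times, and 0 of 8 genes were called (limma adjusted p 0.21 or more). Pgr, the targeted gene, was 2.08-fold lower in null than in wild type glands at 8 h in its representing probe set 1439527_at (8.89 ± 0.29 against 9.94 ± 0.06, SD, n = 3 each; limma adjusted p = 0.012). At 24 h it differed by 1.28-fold (7.46 ± 0.35 against 7.82 ± 0.29; adjusted p = 0.45). Probe set 1455772_at of Pgr was higher in null glands, 3.92-fold at 8 h and 4.28-fold at 24 h. Where these probe sets lie relative to the deleted part is not given in the sources used here, so Pgr checks the labels only in part.

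Id4 was the family member that separated the genotypes, and it did so at 24 h. Its values are on the log2 scale of the deposited table. Probe set 1423259_at, which has the highest mean of the 3 Id4 probe sets, read 7.53, 7.30 and 7.32 in null glands at 24 h, against 9.21, 8.88 and 9.49 in wild type glands at 24 h. The same probe set read 8.11, 7.85 and 8.08 in null glands at 8 h, against 7.84, 8.12 and 8.50 in wild type glands at 8 h. At 24 h every null pool lay below every wild type pool, and at 8 h the genotypes overlapped. Averaged, Id4 stood at 7.38 ± 0.13 in null and 9.19 ± 0.31 in wild type glands at 24 h (SD, n = 3 each), a difference of -1.81 (SE 0.18, 95% interval -2.20 to -1.42) or 3.50-fold lower in null glands, with a limma adjusted p of 0.00049. In bulk tissue, fewer cells that express Id4 and less Id4 RNA per cell cannot be told apart.

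The other 2 Id4 probe sets moved the same way. Probe set 1450928_at read 6.95, 6.83 and 6.66 in null glands at 24 h, against 8.64, 8.28 and 8.97 in wild type glands at 24 h. Its difference was -1.82 (SE 0.17), which is 3.53-fold lower in null glands (limma adjusted p = 0.00046). Probe set 1423260_at read 5.91, 6.50 and 6.04 in null glands at 24 h, against 7.54, 7.02 and 7.24 in wild type glands at 24 h. It was 2.17-fold lower in null glands (log2 difference -1.12, SE 0.18, adjusted p = 0.0096). The genotypes did not overlap at 24 h in any of the 3 Id4 probe sets, as was the case in either direction for 15.3% of all probe sets tested and, with null glands lower, for 9.74%. All 3 are annotated to the same accession, so they are repeated readings of 1 gene in the same RNA and not 3 genes.

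**Figure D1:**
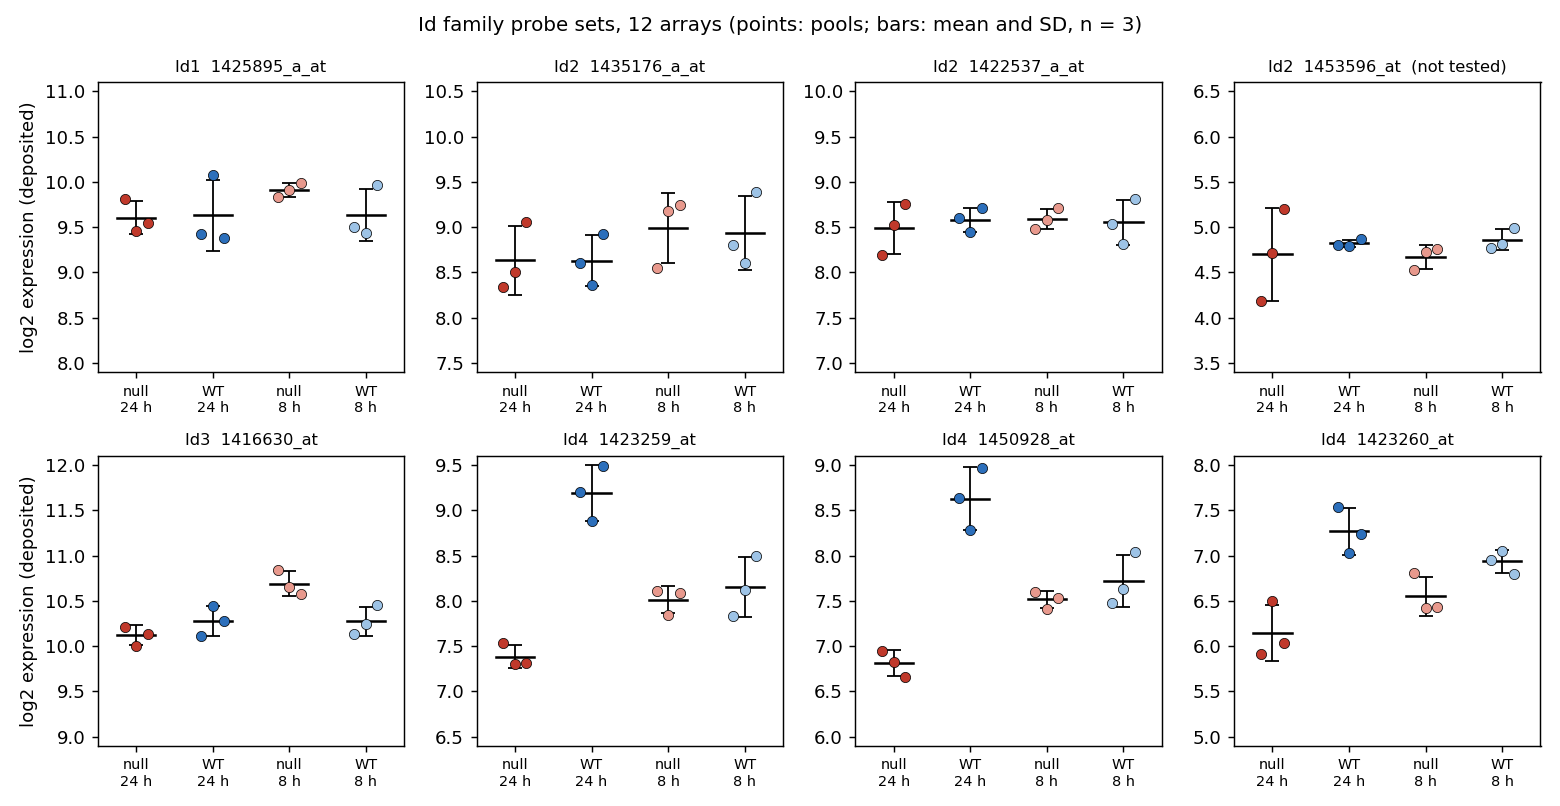
Log2 value of each of the 8 Id probe sets on each of the 12 arrays, with 1 point per pool of 3 mice and bars for the mean and SD of each group. In all 3 Id4 probe sets the null 24 h pools lie below the wild type 24 h pools, while those of Id1, Id2 and Id3 overlap.

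Of the 7 Id probe sets tested, 3 were lower in null glands at 24 h and 0 were higher. Over all 23709 probe sets tested, 1.11% were called in either direction at 24 h (limma, Benjamini-Hochberg adjusted p below 0.05), 0.873% as lower and 0.232% as higher. The 3 calls are the 3 Id4 probe sets. They were kept when any 1 of the 6 pools was left out, with adjusted p up to 0.0045 for 1423259_at, up to 0.0044 for 1450928_at and up to 0.046 for 1423260_at. With only the 6 arrays of the 24 h groups in the fit, 1423260_at lost its call (adjusted p = 0.10).

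Id1, Id2 and Id3 did not pass the test at 24 h, with adjusted p of 0.57 or more. Id1, which BMP signalling induces in many cell types, read 9.81, 9.46 and 9.55 in null glands at 24 h, against 9.43, 10.08 and 9.38 in wild type glands at 24 h. Its difference of -0.02 had a 95% interval from -0.43 to 0.38. Id2 (1435176_a_at) read 8.34, 8.51 and 9.06 in null glands at 24 h, against 8.60, 8.36 and 8.92 in wild type glands at 24 h. Both genes overlapped between genotypes, and so did Id3, which differed by -0.16 (interval -0.41 to 0.08). The interval of the Id2 difference ran from -0.56 to 0.57, so a difference within that range in either direction is not excluded with 3 pools per group. The second tested Id2 probe set, 1422537_a_at, differed by -0.09 (interval -0.43 to 0.25). The third Id2 probe set, 1453596_at, averaged 4.70 in null and 4.82 in wild type glands at 24 h, below the array medians, and was not tested.

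At 8 h, 0 of the 7 Id probe sets were called between genotypes by limma, against 3.07% of all probe sets tested, and 2 of the 7 had an unadjusted p below 0.05, as did 15.6% of all probe sets. Id3 came nearest. It read 10.84, 10.65 and 10.58 in null glands at 8 h, against 10.13, 10.24 and 10.45 in wild type glands at 8 h. Each null pool lay above each wild type pool, which was the case in either direction for 24.4% of all probe sets at 8 h. The difference was 0.42 (SE 0.11, 95% interval 0.17 to 0.66), or 1.33-fold, with an adjusted p of 0.075. Brown adipocyte markers also ran higher in null glands at 8 h, with 2 of 6 called (Ucp1 and Cidea, where 1.42% of all genes were called higher), a list mean of 10.37 to 11.20 in null and 9.21 to 10.01 in wild type pools, and a median difference of 1.29. Both calls were lost when either of null pools 1 and 2 at 8 h, or wild type pool 3, was left out, and that of Cidea also without wild type pool 2. The part of these markers in the Id3 values was not tested.

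The remaining Id genes did not pass the test at 8 h. Id1 read 9.83, 9.91 and 9.98 in null glands at 8 h, against 9.50, 9.44 and 9.96 in wild type glands at 8 h (difference 0.27, adjusted p = 0.54). Id2 (1435176_a_at) read 8.54, 9.18 and 9.25 in null glands at 8 h, against 8.80, 8.60 and 9.39 in wild type glands at 8 h (difference 0.06, adjusted p = 0.95). The pools of both genes overlapped. Id4 differed by -0.14 in 1423259_at (interval -0.53 to 0.25, adjusted p = 0.78), by -0.20 in 1450928_at (adjusted p = 0.65) and by -0.39 in 1423260_at (adjusted p = 0.32).

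The genotype difference of Id4 was larger at 24 h than at 8 h. The interaction term, the null minus wild type difference at 24 h less the same difference at 8 h, was -1.67 for 1423259_at (SE 0.25, limma adjusted p = 0.034) and -1.62 for 1450928_at (SE 0.25, adjusted p = 0.036). For 1423260_at it was -0.73 and did not pass (adjusted p = 0.56). Thus 2 of 7 Id probe sets were called for the interaction, against 0.143% of all probe sets tested. Leaving out 1 array often ended this call. Both probe sets kept it without wild type pool 3 at 8 h or wild type pool 2 at 24 h, and both lost it without any other single pool, with adjusted p between 0.052 and 0.12. Id3 had a term of -0.58 that did not pass (adjusted p = 0.34).

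**Figure D2:**
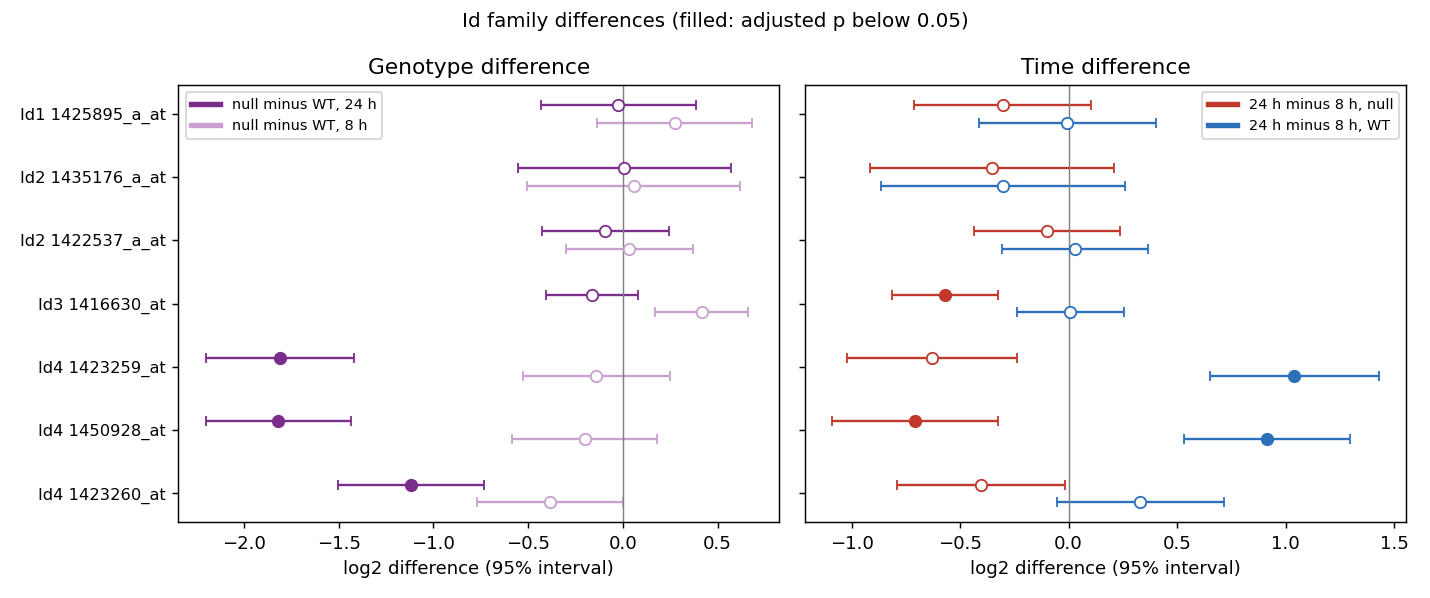
Log2 differences with 95% intervals for the 7 tested Id probe sets, null minus wild type on the left (24 h dark, 8 h pale) and 24 h minus 8 h on the right (null red, wild type blue). Filled points passed the limma test at adjusted p below 0.05. The Id4 probe sets lie between -1.82 and -1.12 at 24 h and between -0.39 and -0.14 at 8 h.

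With time, Id4 rose in wild type glands, and in null glands its means at 24 h lay below those at 8 h. These comparisons share arrays with the genotype comparisons and are not separate evidence. In wild type glands 1423259_at was 2.06-fold higher at 24 h than at 8 h (difference 1.04, SE 0.18, limma adjusted p = 0.010), and 1450928_at was 1.88-fold higher (8.63 ± 0.35 at 24 h against 7.72 ± 0.29 at 8 h, SD, n = 3 each; adjusted p = 0.016). Probe set 1423260_at differed by 0.33 (adjusted p = 0.30). These 2 of 7 Id probe sets rose in wild type glands, against 1.53% of all probe sets that were called higher and 5.22% called in either direction. Without wild type pool 1 at 8 h the call of 1423259_at was lost (adjusted p = 0.0504), and that of 1450928_at was lost without wild type pool 1 or 2 at 8 h (0.078 and 0.056). With only the 6 wild type arrays in the fit, 1450928_at had an adjusted p of 0.067.

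In null glands Id4 was lower at 24 h than at 8 h, near the threshold. Probe set 1450928_at read 6.95, 6.83 and 6.66 at 24 h, against 7.60, 7.41 and 7.54 at 8 h, and the times did not overlap. It fell by 0.71 (1.63-fold, SE 0.17, limma adjusted p = 0.045). Leaving out any 1 of the 6 null pools ended that call, with adjusted p from 0.054 to 0.13. Probe set 1423259_at had a difference of -0.63 (1.55-fold) with an adjusted p of 0.068. With the replicate number as a block on all 12 arrays, which pairs same-numbered pools of every group, its adjusted p was 0.042. It was 0.037 with the block on only the null arrays. For 1450928_at these blocks gave 0.034 and 0.036. Probe set 1423260_at differed by -0.40 (adjusted p = 0.21).

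Id3 also fell with time in null glands, while in wild type glands it differed by only 0.01. Id3 read 10.22, 10.00 and 10.14 in null glands at 24 h, against 10.84, 10.65 and 10.58 in null glands at 8 h. The times did not overlap, and the difference was -0.57 (1.49-fold lower at 24 h, SE 0.11, limma adjusted p = 0.019). In wild type glands Id3 read 10.12, 10.45 and 10.28 at 24 h, against 10.13, 10.24 and 10.45 at 8 h, and these overlapped (interval of the difference -0.24 to 0.25). Whether the change over time differed between genotypes is the interaction term of Id3, which did not pass. Without null pool 2 at 8 h the call was lost (adjusted p = 0.053), and likewise without null pool 2 at 24 h (0.080). With a replicate block on the null arrays alone, the adjusted p of Id3 was 0.034. With Id3 and Id4 1450928_at, 2 of 7 Id probe sets fell in null glands, against 3.59% of all probe sets called lower and 4.4% called in either direction.

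Id1 and Id2 did not pass the test over time in either genotype. Id1 differed by -0.30 in null glands (adjusted p = 0.38), where the 3 pools at 24 h lay below those at 8 h. Groups without overlap, in either direction, were found for 26% of all probe sets in null glands and for 25.9% in wild type glands. In wild type glands Id1 differed by -0.01 (adjusted p = 0.99). Id2 1435176_a_at differed by -0.35 in null and by -0.30 in wild type glands (adjusted p = 0.47 and 0.54), with intervals from -0.92 to 0.21 and from -0.87 to 0.26.

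Ordered by mean, each of the 3 Id4 probe sets ran wild type 24 h, wild type 8 h, null 8 h and null 24 h, from high to low. For 1423259_at, wild type 24 h differed from wild type 8 h, wild type 8 h and null 8 h overlapped and were not told apart, and null 8 h against null 24 h did not pass the test. Id3 ran null 8 h at 10.69, wild type 24 h at 10.28, wild type 8 h at 10.27 and null 24 h at 10.12. The middle pair lay 0.01 apart, and the lowest group overlapped both. Id1 ran null 8 h at 9.91, wild type 8 h and wild type 24 h both at 9.63, and null 24 h at 9.61, and no neighbours were told apart. Id2 1435176_a_at put both 8 h groups first, null at 8.99 and wild type at 8.93, with both 24 h groups at 8.63.

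Part of the epithelial markers were lower in null glands at 24 h, as Id4 was. Of 9 luminal markers tested, 3 were lower in null glands at 24 h, where 1.05% of all genes were. They were the tight junction genes Cldn7 (2.28-fold) and Cldn3 (1.99-fold) and the adhesion gene Cdh1 (1.81-fold), whose call was lost with only the 24 h arrays in the fit (adjusted p = 0.087). The luminal keratin Krt8 was 1.14-fold higher and did not pass (limma adjusted p = 0.52). The mean of the luminal list ranged from 9.32 to 9.56 in null and from 9.71 to 10.11 in wild type pools at 24 h, and its genes had a median difference of -0.55. Of 8 basal markers 1 was lower, Trp63, the basal epithelial transcription factor (2.65-fold, adjusted p = 0.033), a call that was lost without any of wild type pools 1 and 3 or null pools 2 and 3 at 24 h. The mean of the basal list ranged from 7.79 to 8.04 in null and from 8.43 to 9.26 in wild type pools, with a median difference of -0.75. At 8 h 2 of 9 luminal markers were called higher in null glands, beside 1.42% of all genes. They were Krt8 (difference 0.80, limma adjusted p = 0.0032) and Krt18 (0.39, adjusted p = 0.039, lost without any 1 of the 6 pools). The list as a whole did not run higher, with a median difference of -0.04 at 8 h. Its mean overlapped between genotypes there, at 9.69 to 9.91 in null and 9.67 to 9.86 in wild type pools. Over time 1 of 8 basal markers was called, Oxtr, lower at 24 h in null (-1.66, limma adjusted p = 0.00037) and wild type glands (-1.41, 0.0011). The median time difference of the 8 was -0.88 in null but 0.31 in wild type glands, where Oxtr thus ran against the list. Of 9 luminal markers 2 fell with time in null glands, Cldn7 (-0.78, limma adjusted p = 0.015) and Cdh1 (-0.51, 0.037). In wild type glands 2 rose, Cldn3 (0.51, 0.033) and Krt8 (0.48, 0.037). The Cdh1 call was lost without any 1 of the 6 null pools, and that of Cldn7 without null pool 3 at either time. The calls of Cldn3 and Krt8 were each kept in 1 of 6 fits that left out a pool. The luminal median was -0.27 in null and 0.31 in wild type glands. Of all genes, 4.57% were called over time in null and 5.27% in wild type glands.

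The Id4 difference was measured against these markers on the same array. With the luminal mean subtracted, the genotype difference at 24 h was -1.33 for 1423259_at, -1.35 for 1450928_at and -0.65 for 1423260_at. With the basal mean subtracted it was -0.94, -0.95 and -0.25 in the same order. The difference was thus smaller relative to either list and was smallest for 1423260_at. Relative to the basal mean, 1423260_at read -2.10, -1.54 and -1.75 in null glands at 24 h, against -1.21, -1.41 and -2.02 in wild type glands at 24 h. Its genotypes thus overlapped, while those of 1423259_at and 1450928_at did not. The interaction term was -1.17, -1.12 and -0.24 with the luminal mean subtracted. With the basal mean subtracted it was -0.60, -0.55 and 0.33, against -1.67, -1.62 and -0.73 without subtraction. In null glands over time, where the basal genes had a median difference of -0.88, subtracting the basal mean gave 0.23 for 1423259_at and 0.15 for 1450928_at, the opposite sign to the unadjusted differences. Relative to that mean, 1423259_at read -0.48, -0.74 and -0.48 at 24 h, against -0.65, -1.29 and -0.42 at 8 h. The values of 1450928_at were -1.06, -1.21 and -1.13 at 24 h, against -1.16, -1.73 and -0.97 at 8 h. Relative to the basal mean the times overlapped in both probe sets, and null pool 2 at 8 h lay lowest. Relative to the luminal mean, 1423259_at read -2.02, -2.23 and -2.00 in null glands at 24 h, against -1.80, -1.85 and -1.63 at 8 h. The values of 1450928_at were -2.61, -2.71 and -2.65 at 24 h, against -2.31, -2.28 and -2.17 at 8 h. With the luminal mean subtracted, the 24 h pools thus still lay below the 8 h pools in both probe sets. In wild type glands over time the differences after subtracting the basal mean were 0.83 and 0.70.

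**Figure D3:**
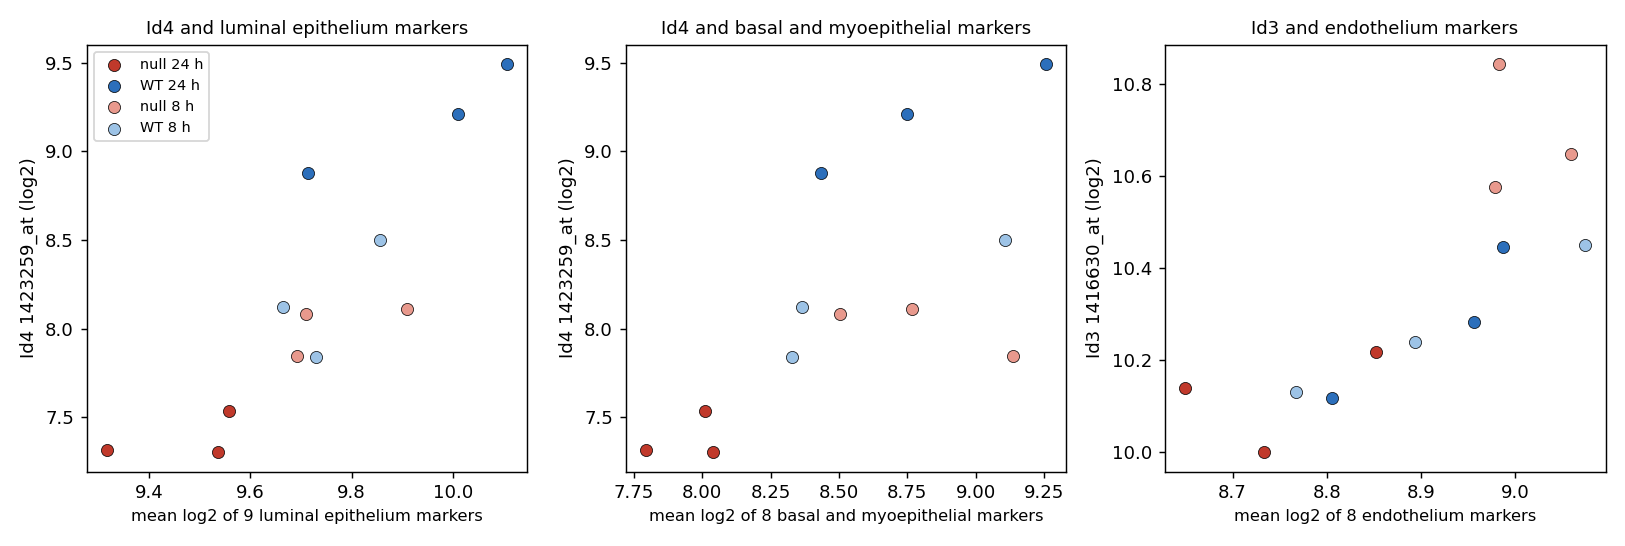
Log2 value of an Id probe set on each of the 12 arrays against the mean log2 of a marker list on the same array, Id4 1423259_at against luminal and basal markers and Id3 1416630_at against endothelial markers, with 1 point per pool. The null 24 h pools have the lowest basal means, 7.79 to 8.04, and the lowest Id4 values, 7.30 to 7.53.

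Id3 is abundant in endothelium, and part of the endothelial markers fell with it over time in null glands. Of 8 endothelial markers, 3 were lower at 24 h than at 8 h in null glands, where 3.83% of all genes were called lower. They were Tie1 (1.62-fold), Pecam1 (1.42-fold) and Kdr (1.22-fold), of which Kdr, when 1 pool was left out, kept its call only without null pool 1 at 24 h. With a replicate block on the null arrays alone, Kdr lost its call (limma adjusted p = 0.10). The list mean ranged from 8.65 to 8.85 in null glands at 24 h and from 8.98 to 9.06 in null glands at 8 h, with a median difference of -0.26. With that mean subtracted, the Id3 time difference in null glands was -0.31, against -0.57 without subtraction. In wild type glands the list mean ranged from 8.81 to 8.99 at 24 h and from 8.77 to 9.07 at 8 h. There 1 of the 8 was called lower at 24 h, Tie1 again (1.26-fold, limma adjusted p = 0.038), a call that was lost without any 1 of the 6 wild type pools. Over all genes, 5.27% were called in either direction over time in wild type glands. Between genotypes at 8 h 1 of the 8 was called, Vwf, beside 3% of all genes. It was lower in null glands (8.71 ± 0.07 against 9.54 ± 0.27, SD, n = 3 each; limma adjusted p = 0.0090), where Id3 ran higher. The median difference of the 8 genes at 8 h was 0.19.

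The genes whose values ran most like each Id gene were ranked by Pearson's r over the 12 arrays, among 12001 other genes and as a description only. The 12 arrays fall into 4 groups, so a shared group difference raises r. Nearest to Id4 were Arhgef26, a guanine nucleotide exchange factor (r = 0.96), Fxyd3, a regulator of the sodium pump (0.95), the transcription factor Sox4 (0.95), the homeobox gene Irx4 (0.94) and D17H6S56E-5 (0.94). Sox4 averaged 10.22 in null and 11.37 in wild type glands at 24 h, and 10.74 in null and 10.90 in wild type glands at 8 h. Irx4 averaged 5.28 in null and 6.41 in wild type glands at 24 h. Both were thus highest in wild type glands at 24 h, as Id4 was, and Irx4 lay above the array median only on the 3 arrays of that group and 1 wild type array at 8 h. The lowest r with Id4 was that of Smim38 (-0.91), at 6.54 in null and 5.36 in wild type glands at 24 h.

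**Figure D4:**
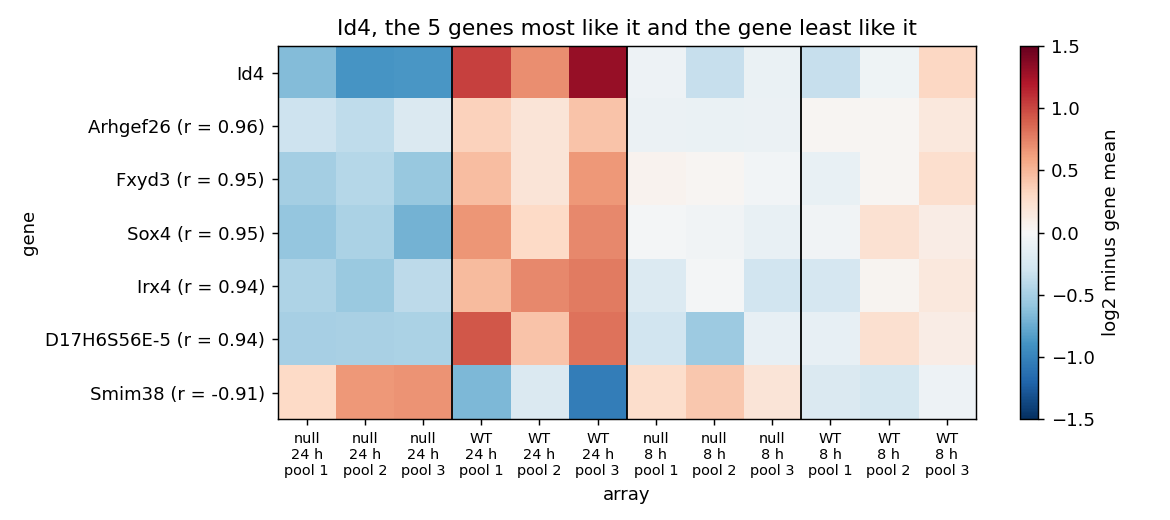
Colours give the log2 value on each of the 12 arrays minus the gene's own mean (red above, blue below), for Id4, the 5 genes most like it by Pearson's r and Smim38, the gene of lowest r. By group mean Id4 and the 5 genes are highest in wild type glands at 24 h, and Smim38 is lowest there.

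Id3 ran most like Prag1 (r = 0.94), Arhgef15 (0.92), the lysosomal phosphatase Acp2 (0.92), the endothelial growth factor receptor Kdr (0.90) and the peroxiredoxin Prdx2 (0.90), and least like Rad51c (-0.93). Id1 ran most like Agmo (0.97), Vnn1 (0.94), the adipocyte hormone Adipoq (0.93), the cytokine Il34 (0.91) and the ubiquitin ligase Nedd4 (0.91), and least like Phf21a (-0.88). Id2 ran most like Morc3 (0.94), Zbtb33 (0.94), the p53 regulator Mdm4 (0.93), Rnpc3 (0.93) and Camk1d (0.93), and least like Rbfox3 (-0.95). Ranked by Spearman's rho instead, 3 of the 5 nearest genes were shared for Id4 and for Id1, and 2 of 5 for Id2 and for Id3. Within the family, Id1 and Id3 had r = 0.71, and Id4 had r = -0.05 with Id1, 0.01 with Id2 and 0.14 with Id3.

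The E protein genes, the direct partners of Id proteins, did not pass the test between genotypes. All 3 E protein genes were tested, and at 24 h Tcf3 differed by -0.10, Tcf4 by -0.09 and Tcf12 by -0.08 (limma adjusted p 0.65 or more), against 1.3% of all 12002 genes called with 1 probe set per gene. At 8 h 0 of 3 were called (adjusted p 0.55 or more), where 3% of genes were. In null glands 2 of 3 fell with time, against 4.57% of genes called and 3.83% called lower. They were Tcf4, lower by 1.57-fold (10.36 ± 0.14 at 24 h against 11.01 ± 0.18 at 8 h, SD, n = 3 each; adjusted p = 0.014) and Tcf12, lower by 1.23-fold (adjusted p = 0.030). The Tcf4 call was lost without null pool 2 or 3 at 8 h or null pool 2 at 24 h, and the Tcf12 call without any of these or null pool 1 at 24 h. With a replicate block on the null arrays alone their adjusted p were 0.056 and 0.076. Of 18 tissue-restricted helix-loop-helix factors 9 were tested, and Tcf15 alone was called in any comparison, 1.64-fold higher at 24 h than at 8 h in wild type glands (adjusted p = 0.025, lost without any of wild type pools 1, 2 and 3 at 8 h or 1 and 2 at 24 h). Over all genes, 5.27% were called over time in wild type glands and 1.45% were called higher.

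The BMP pathway, taken as 5 lists of ligands, receptors, SMADs, antagonists and feedback genes, had 29 of 39 genes tested. At 24 h 0 of the 29 were called between genotypes by limma, 5 had an unadjusted p below 0.05 (as did 13.8% of all genes), and the differences ran from -0.34 (Gdf10) to 0.35 (Bmp6). Their median was -0.10, beside -0.01 over all genes. At 8 h 1 of 29 was called, the ligand Bmp6, 1.58-fold higher in null glands (7.42 ± 0.10 in null and 6.76 ± 0.19 in wild type glands; adjusted p = 0.023), where 1.42% of all genes were called higher. That call was kept only without wild type pool 3 and was lost without any other pool at 8 h. The ligand Bmp8a averaged 5.48 ± 0.27 in null and 5.43 ± 0.20 in wild type glands at 24 h, and 6.39 ± 0.26 in null and 6.51 ± 0.16 in wild type glands at 8 h. It lay above the array median only on the 6 arrays of the 8 h groups, through which it passed the filter, so no fold or test over time is given. The receptor Acvr2a was 1.36-fold higher at 24 h than at 8 h in wild type glands (adjusted p = 0.021), a call that was lost without pool 1 or 2 at 8 h or pool 2 or 3 at 24 h.

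Genes tied to Id proteins in cell cycle and lineage control had 12 of 14 members tested. At 24 h 2 of 12 were lower in null glands, beside 1.05% of all genes. Ccnd1, which encodes cyclin D1 and drives entry into S phase, stood at 8.84 ± 0.08 in null and 9.86 ± 0.34 in wild type glands (2.04-fold lower, limma adjusted p = 0.0041). Myc, the growth regulator, stood at 8.10 ± 0.35 in null and 9.20 ± 0.33 in wild type glands (2.15-fold lower, adjusted p = 0.015), and lost its call without wild type pool 1 or 3 or null pool 2 at 24 h. The median of the 12 was -0.11, and the alveolar factor Elf5 was 1.46-fold lower without passing (adjusted p = 0.28). With only the 24 h arrays in the fit, neither was called (adjusted p = 0.074 for Ccnd1 and 0.15 for Myc). At 8 h 1 of 12 was called, beside 3% of all genes (1.42% higher). It was the cell cycle inhibitor Cdkn1c, 1.53-fold higher in null glands (adjusted p = 0.0086), which then fell by 1.58-fold with time in null glands (adjusted p = 0.0083, and 0.053 with a replicate block on the null arrays alone).

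The ligand RANKL, encoded by Tnfsf11, is known as a signal from progesterone receptor positive cells to their neighbours. Tnfsf11 read 2.93, 4.38 and 5.04 in null glands at 24 h, against 7.79, 6.41 and 7.76 in wild type glands at 24 h. At 8 h it read 3.54, 3.27 and 3.29 in null glands, against 4.23, 5.23 and 4.13 in wild type glands. It lay above the array median on the 3 wild type arrays at 24 h and on 0 of the other 9 arrays, and so passed the filter only through the group where it was high. For that reason no fold or test is given. Its receptor gene Tnfrsf11a differed between genotypes at 24 h by 1.07-fold (limma adjusted p = 0.68).

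**Figure D5:**
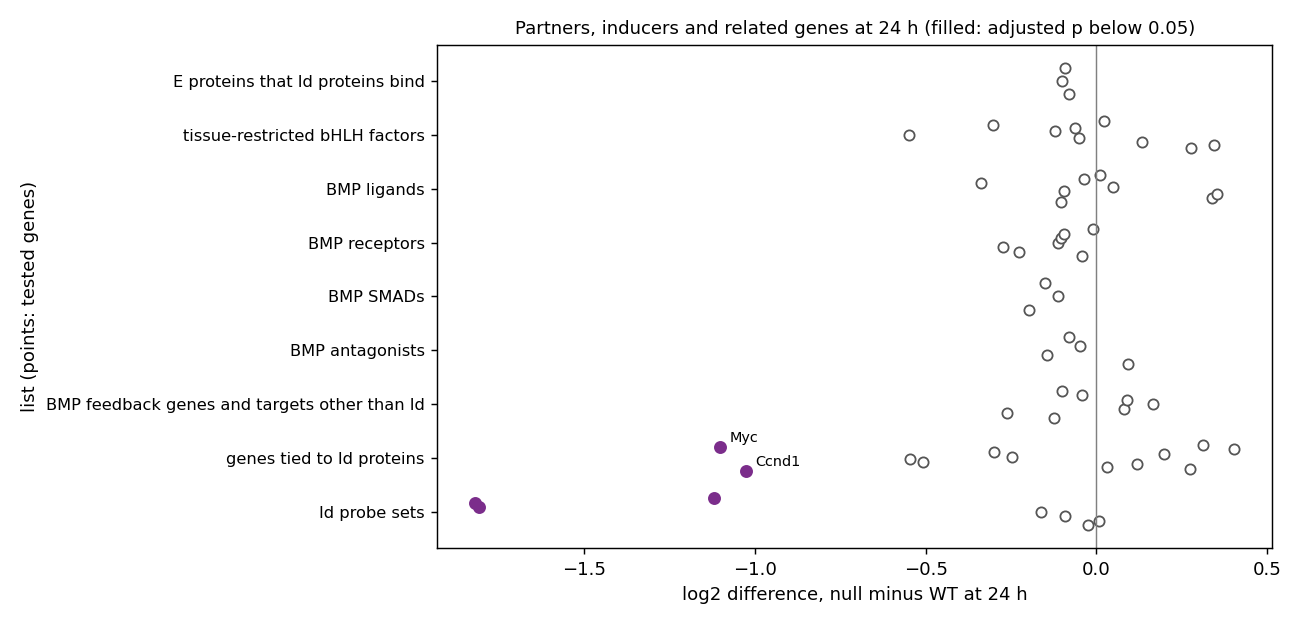
Log2 difference, null minus wild type glands at 24 h, for each tested gene of the lists of Id partners, BMP pathway, and cell cycle and lineage genes, with 1 point per gene, and for the 7 tested Id probe sets in the bottom row. Filled points passed the limma test at adjusted p below 0.05. Besides the 3 Id4 probe sets, Myc (2.15-fold) and Ccnd1 (2.04-fold) are the plotted genes called lower in null glands at 24 h.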

How the data were processed

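Total RNA from lipid-rich tissue was biotin-labelled as cRNA, per the labels' protocols. The deposited table held 45101 probe sets on 12 arrays. The deposited values were read as log2 from their range, because no source states the scale. The submitters' processing notes name MAS5 without a role or version, and how the authors summarized or normalized the probes is not given in the sources used here. Array number limits the precision. In the platform annotation, 34945 of 45037 probe sets (controls excluded) carried 1 gene symbol and could be named, 932 carried several and 9160 carried 0.

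The labels gave the groups and call the pools biological replicates. A probe set was tested when it exceeded its array's median on 3 or more of 12 arrays. That left 23709 probe sets, which represented 12002 genes when each gene took the probe set of highest mean over all arrays. Testing used limma 3.58.1 (lmFit, then eBayes with trend) in R 4.3.3, with a mean per group and 8 residual degrees of freedom. P-values were Benjamini-Hochberg adjusted over everything tested, and calls were made below 0.05. SE is limma's moderated standard error. The code was tested on simulated data.

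Named were all Id probe sets, and the 5 genes of highest and the 1 of lowest Pearson's r with each Id gene. Also named were called members of the lists of partners, BMP pathway, RANK, and cell cycle and lineage genes. Of the cell type marker lists, called members are named in only part of the comparisons. A few uncalled list members are given as values and were chosen after their values were seen. The members and lists were chosen with earlier results of these data known.

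Pools are numbered 1 to 3 in every group. In null glands, same-numbered arrays at 24 h and 8 h deviated together from their groups in each of the 3 pairs (r = 0.52, 0.26 and 0.38). With 3 arrays per group these r are not independent, and the labels do not say that the numbers mark pairs. The main test therefore left the pools unpaired, and the number as a block was an alternative. The calls of Oxtr, Tie1 and Pecam1 over time in null glands were kept under every alternative, the block included. In the other comparisons at least 1 pair had r below 0.1. The alternatives were other filters, priors without trend or robust, a floor at 4, quantile normalization or median centring, array weights, fits on only the arrays compared, 1 probe set per gene, a replicate block, and each array left out. Combining the block with only the arrays compared, and subtracting marker means, were chosen after seeing the data. Promoters came from RefSeq (GRCm38.p6). Figures used matplotlib 3.10.9.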

Additional observations from a re-analysis of the deposited data

Results flagged for a closer look

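The genotype difference of Id4 changed between the times in a test of the change itself. For probe set 1423259_at the null minus wild type difference was -1.81 at 24 h and -0.14 at 8 h, which gives an interaction term of -1.67 (3.18-fold, limma adjusted p = 0.034). For probe set 1450928_at it was -1.82 at 24 h and -0.20 at 8 h, with a term of -1.62 (3.07-fold, adjusted p = 0.036). These are readings of 1 gene in the same RNA. Both calls were kept in 2 of 12 fits that each left out 1 array, and lost in the others with adjusted p up to 0.12. With the basal marker mean subtracted, which gives no test, the terms were -0.60 and -0.55.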

How the results depend on the processing

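The 3 Id4 calls at 24 h were kept in every fit that left out 1 array and under every other alternative except 1 probe set per gene, which keeps 1 of the 3 (1 call), and fits on only the 24 h arrays. With those arrays and a replicate block, 1 Id probe set was called. The cause of other changes was not tested.

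Array weights gave 4017 called probe sets at 8 h (3 Id probe sets, those of Id1, Id3 and Id4 1423260_at), 685 at 24 h, 169 for the interaction and 5775 over time in null glands (5 Id probe sets), against 729, 262, 34 and 1044. With 1 probe set per gene, fewer were tested, and 338 were called at 8 h, 165 at 24 h, 10 for the interaction (1 Id), 572 over time in null (1 Id) and 648 in wild type glands (1 Id). A filter at 6 arrays left 21 calls for the interaction. With only the arrays compared, 71 were called at 24 h, 348 over time in null and 500 in wild type glands (1 Id), where the full fit gave 1238. Over time in null glands, 1 Id probe set was called without a filter and 1 after quantile normalization. With the replicate block, 482 were called at 24 h and 1667 over time in null glands. On only the arrays compared, the block gave 52 at 24 h, 566 in null and 590 in wild type glands. The block changed no other count by more than 1.5 times.

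Leaving out 1 array gave 318 to 571 calls at 8 h (0 Id), 118 to 694 at 24 h (3 Id), 7 to 37 for the interaction (0 to 2 Id), 228 to 1009 over time in null (0 to 1 Id) and 234 to 855 in wild type glands (0 to 2 Id). Of the called Id differences, only Id4 1450928_at over time in null glands turned its sign, at 0.15 after the basal marker mean was subtracted. With that mean subtracted, the null pools overlapped between the times. With the luminal mean subtracted, its null pools at 24 h lay below those at 8 h. Of 643 refits of single Id probe sets, 562 kept direction and side of the threshold, 37 lost a call, 9 gained one and 35 turned sign, all between differences that were not called in either fit.

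Those 35 belong to differences near 0. Array weights gave -0.10 for Id2 1435176_a_at at 24 h and 0.039 for Id1 over time in wild type glands, where quantile normalization gave 0.045. Median centring gave -0.019 for Id3 over time in wild type glands. Without 1 array, Id1 ranged from -0.15 to 0.20 at 24 h and from -0.23 to 0.16 over time in wild type glands. Id2 1435176_a_at ranged from -0.11 to 0.29 at 8 h, from -0.21 to 0.16 at 24 h and from -0.28 to 0.11 for the interaction. Id2 1422537_a_at ranged from -0.083 to 0.17 at 8 h, from -0.23 to 0.061 at 24 h and from -0.26 to 0.025 for the interaction. Over time it ranged from -0.23 to 0.054 in null and from -0.090 to 0.16 in wild type glands. Id3 ranged from -0.074 to 0.096 over time in wild type glands, and Id4 1423259_at from -0.30 to 0.033 at 8 h.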
